A study of Mus musculus with 3 samples.

Results

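The stefin A cluster is a run of closely related genes on mouse chromosome 16, and 8 of its genes are described here: Stfa1, Stfa2, Stfa2l1, Stfa3, Csta2, Csta3, Cstdc4 and Cstdc5. They were chosen by symbol out of 33696 genes in the deposited tables, with their high level in neutrophil precursors already known, so their levels are given as a description. The data are droplet single-cell RNA counts of mouse bone marrow in 3 libraries, 1 for each genotype of Fabp4, a fatty acid-binding protein gene: homozygous knockout, heterozygous knockout and wild type. Each library mixed the marrow of 2 mice of that genotype, and no label assigned a cell to a mouse. The title of the series concerns leukaemia stem cells, but no label says if leukaemic cells were in the marrow, and none gives strain, sex or age.

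Stefins, or type 1 cystatins, are small inhibitors without a signal peptide that act inside cells and block papain-like cysteine proteases such as cathepsins B, H, L and S. Humans have a single stefin A gene, while mice carry an expanded array of stefin A-type genes beside the single-copy stefin B gene, Cstb. In mouse marrow these genes are known for their expression in maturing granulocytes, the cells that make the secondary granule proteins lactoferrin (Ltf), neutrophilic granule protein (Ngp) and cathelicidin (Camp). The members differ little in domain layout, and separate roles have not been settled for most of them, so the order below follows their pattern of expression.

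All 8 gene identifiers were found in the GENCODE M21 annotation of GRCm38, where they lie between bases 36156811 and 36455392 of chromosome 16, a span of 298582 bases. In that order Stfa2l1, Cstdc4, Csta3, Csta2 and Stfa1 are on the plus strand, and Cstdc5, Stfa2 and Stfa3 are on the minus strand. Cstdc6, a stefin gene that is not among the 8, lies inside the span at 36321665 to 36334332, and Csta1 is the neighbour on the left at 36119946 to 36131241. All 8 promoters were found in the RefSeq table for GRCm38.p6, which holds the 250 bases before and 50 after each annotated start. Over the 250 upstream bases, the 21 pairs without Csta2 were 66.4% to 90.8% identical with a median of 77.2%, while the 7 pairs with Csta2 were 55.6% to 58.8% identical. The longest runs found in at least 7 of the 8 were 13 bases long. ACCTTTAAAACCC was present in 7 members and, on either strand, in 9 of all 32851 promoters (0.0274%), the others being Cstdc3, a further stefin-type gene, and Gm7260. GATCATTTCTTCT was present in the same 7 members and began 32 or 33 bases after it in each. The first base of ACCTTTAAAACCC lay 32 to 36 bases before the annotated start of Stfa1, Stfa2, Stfa2l1, Stfa3 and Cstdc4, 80 bases before that of Csta3 and 12 bases before that of Cstdc5. The starts of the 2 annotations differ: the windows printed below for Csta2, Stfa1, Cstdc5 and Stfa2 lie inside the genes as M21 places them. Only the bases around the RefSeq starts were searched, so the lack of the run in Csta2 holds for that stretch alone. The windows below show ACCTTTAAAACCC in capitals at the end of 60 bases in 7 members. For Csta2 they show the 60 bases before its RefSeq start.
Stfa1: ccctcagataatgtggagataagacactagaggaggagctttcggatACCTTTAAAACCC
Cstdc5: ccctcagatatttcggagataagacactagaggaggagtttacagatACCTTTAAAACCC
Cstdc4: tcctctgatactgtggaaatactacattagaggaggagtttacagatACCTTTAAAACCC
Stfa2: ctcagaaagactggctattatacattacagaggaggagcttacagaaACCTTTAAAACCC
Stfa2l1: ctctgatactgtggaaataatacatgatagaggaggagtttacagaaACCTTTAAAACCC
Stfa3: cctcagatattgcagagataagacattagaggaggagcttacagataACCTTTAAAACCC
Csta3: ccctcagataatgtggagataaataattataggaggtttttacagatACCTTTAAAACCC
Csta2: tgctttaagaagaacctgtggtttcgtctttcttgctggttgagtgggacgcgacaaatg

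The windows lie at chr16:36277068-36277127 on the plus strand for Stfa1, chr16:36367570-36367629 on the minus strand for Cstdc5 and chr16:36184133-36184192 on the plus strand for Cstdc4. Those of Stfa2 and Stfa3 lie at chr16:36408383-36408442 and chr16:36455414-36455473 on the minus strand. Those of Stfa2l1, Csta3 and Csta2 lie at chr16:36156728-36156787, chr16:36210276-36210335 and chr16:36221502-36221561 on the plus strand. The motif TTNNGCAA, a core of the site of the C/EBP factors of the myeloid lineage, was found on either strand in 3 members (Stfa1, Cstdc5 and Csta3) and in 10.8% of all promoters. GAGGAAGT, a core of the PU.1 site, was found in 0 members and in 3.20% of all promoters. These matches describe letters in the windows and not binding.

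The homozygous library held 8115 barcodes and 54160590 UMIs (unique molecular identifiers, each a counted RNA molecule), the heterozygous 10718 and 78426908, and the wild-type 9432 and 77173735. Barcodes below 500 UMIs or 200 genes, or with a mitochondrial share of 10% or more, were dropped, which left 4318 homozygous, 7957 heterozygous and 5604 wild-type cells. Fabp4 itself, targeted in the knockouts, had 5 UMIs in homozygous, 38 in heterozygous and 50 in wild-type kept cells, too few for more than a check of the labels. Some barcodes occurred in more than 1 library: 6 kept cells were shared by the homozygous and wild-type libraries, 15 by the heterozygous and wild-type and 10 by the homozygous and heterozygous. Sex-linked RNA differed between the libraries. Xist, the RNA of the inactive X chromosome, stood at 1230 CPM (UMIs of a gene per 1000000 UMIs) in homozygous, 208 CPM in heterozygous and 1281 CPM in wild-type cells, and 4 Y-linked genes together at 20.003 CPM in homozygous, 263 CPM in heterozygous and 9.44 CPM in wild-type cells. The heterozygous library thus differed from the other two in sex-linked RNA as well as in genotype, and the part of this in any result below was not tested.

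The level of the stefins was read first in cells that held at least 1 UMI of each of Ltf, Ngp and Camp, with these making up at least 1% of the cell's UMIs. Such cells, called Ltf, Ngp and Camp cells here, were 271 of the homozygous (6.28%, 95% exact binomial interval 5.57% to 7.04%), 2865 of the heterozygous (36.0%, 35.0% to 37.1%) and 563 of the wild-type cells (10.05%, 9.27% to 10.9%). The cut falls within a continuous range, since 378 homozygous, 1714 heterozygous and 503 wild-type cells had a share of 0.5% to 2%. Camp stood at 23227 CPM in homozygous, 22359 CPM in heterozygous and 20438 CPM in wild-type cells, which follows from the choice of the cells. Lcn2, a secondary granule gene that did not choose them, stood at 7338, 7252 and 7195 CPM in the same libraries. The chosen cells included cells of immature and of mature neutrophil-like clusters, described below.

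Stfa1 was the most abundant member in these cells, at 11429 CPM in homozygous (95% exact Poisson interval 11304 to 11554), 9662 CPM in heterozygous and 9551 CPM in wild-type cells. Cstdc5 came next, at 8217, 8515 and 7432 CPM in the homozygous, heterozygous and wild-type libraries. Cstdc4 stood at 3953 CPM in homozygous, 3779 CPM in heterozygous and 3653 CPM in wild-type cells. These members, with Stfa1 first, formed a leading trio in every library. Stfa2 had 2574 CPM in homozygous, 2992 CPM in heterozygous and 2317 CPM in wild-type cells, and Stfa2l1 had 1999.9, 1974 and 1733 CPM. Stfa3 had 1156 CPM in homozygous, 1165 CPM in heterozygous and 951 CPM in wild-type cells. The lowest members were Csta2, at 198 CPM in homozygous, 170 CPM in heterozygous and 159 CPM in wild-type cells, and Csta3, at 128, 267 and 121 CPM. The order of the 8 was the same in the homozygous and wild-type libraries, and Csta3 stood above Csta2 in the heterozygous library. CPM from 3' tags counts transcripts rather than length, so members are compared on that scale only. The intervals cover counting error alone, and UMIs of 1 cell are not independent.

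Added together, the 8 genes stood at 29655 CPM in homozygous (29454 to 29857), 28525 CPM in heterozygous and 25919 CPM in wild-type cells. Stefin UMIs per Ltf, Ngp and Camp UMI were 0.773 in homozygous, 0.746 in heterozygous and 0.758 in wild-type cells. At least 1 stefin UMI was found in 95.6% of homozygous, 99.9% of heterozygous and 97.9% of wild-type Ltf, Ngp and Camp cells. With every cell thinned to 1000 UMIs, Stfa1 was detected in 65.5% of homozygous, 73.5% of heterozygous and 71.8% of wild-type cells, against 84.1%, 97.0% and 91.1% without thinning. Of the shallower cells, 4 homozygous, 21 heterozygous and 0 wild-type were left out.

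**Figure D1:**
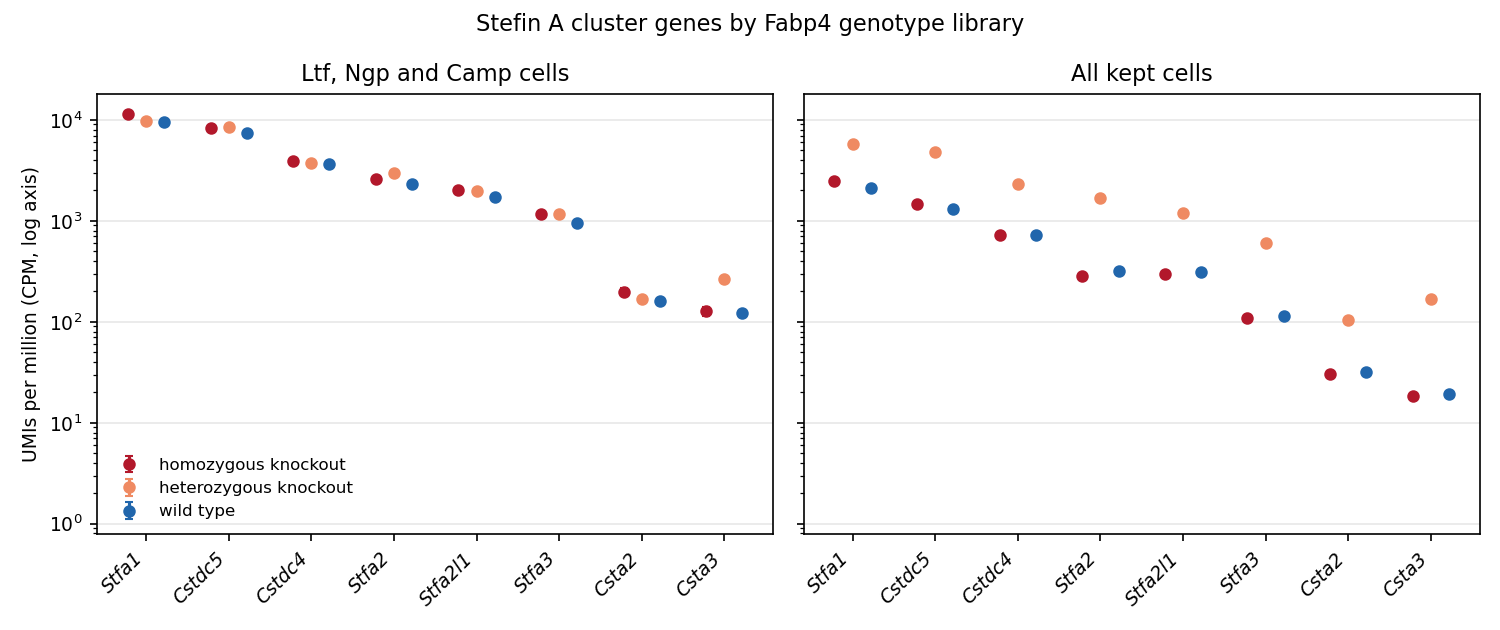
UMIs per 1000000 (log axis) of each of the 8 genes in Ltf, Ngp and Camp cells (left) and in all kept cells (right), with points for the homozygous, heterozygous and wild-type libraries and bars for 95% exact Poisson intervals, most of them smaller than the points. The libraries lie close together on the left, where Csta3 is the widest apart at 128, 267 and 121 CPM, while on the right the heterozygous library is highest for all 8 genes.

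With 1 library per genotype there is no spread between animals, so no test was made, and a gene was counted only when past 2-fold with at least 20 UMIs in the 2 libraries. In homozygous over wild-type Ltf, Ngp and Camp cells, 0 of 8 members passed 2-fold, where 6.36% of 11068 genes did. The log2 CPM ratio was above 0 for all 8, from 0.08 for Csta3 to 0.32 for Csta2, with a median of 0.18 beside a median of -0.03 over all genes. The counting interval of Csta3 reached from -0.11 to 0.26, and with equal weight for each quartile of a late neutrophil share, described below, Csta3 was at -0.30. The intervals of the other 7 lay above 0. Stfa1 had a log2 ratio of 0.26 (0.24 to 0.28), Stfa3 of 0.28 (0.22 to 0.34), Cstdc5 of 0.14 (0.12 to 0.17) and Cstdc4 of 0.11 (0.08 to 0.15). The genes that chose the cells were higher by similar amounts, with log2 ratios of 0.17 for Ltf, 0.13 for Ngp and 0.18 for Camp.

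In heterozygous over wild-type Ltf, Ngp and Camp cells, 1 of 8 members passed 2-fold, where 8.06% of 13690 genes did. That gene was Csta3, at 267 CPM in heterozygous and 121 CPM in wild-type cells (log2 1.14, 1.03 to 1.25). This count depended on how the cells were weighted. Csta3 was at 0.58 with equal weight for each late quartile and at 0.97 with cells weighted equally, both under 2-fold. The last late quartile held 53 wild-type cells. Within the quartiles, from first to last, Csta3 had 68.7, 173, 483 and 465 CPM in heterozygous and 51.3, 133, 221 and 388 CPM in wild-type cells, past 2-fold in the third. The other 7 had log2 ratios of 0.02 for Stfa1 (0.00 to 0.03) to 0.37 for Stfa2 (0.34 to 0.39), and the median of the 8 was 0.19 beside -0.08 over all genes. Stfa1 changed sign under 4 alternatives, for example to -0.07 with the share cut at 3%, Cstdc4 turned to -0.08 under that cut, and Stfa3 and Csta2 turned to -0.07 and -0.23 with equal weight for each late quartile. The single wild-type library stands under both of these ratios. Homozygous over heterozygous cells gave a log2 ratio of -1.07 for Csta3 (-1.22 to -0.91), the 1 member past 2-fold where 11.8% of 13444 genes passed. It was under 2-fold at -0.89 with equal weight for each late quartile, and at -0.96 to -0.99 with cells weighted equally, without top-scoring doublets or with no limit on the mitochondrial share. By log2 ratio 4 members were above and 4 below 0.

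Over all kept cells the heterozygous library stood apart. Stfa1 had 2489 CPM in homozygous, 5783 CPM in heterozygous and 2096 CPM in wild-type cells. Stfa2 had 283 CPM in homozygous, 1700 CPM in heterozygous and 320 CPM in wild-type cells. Csta3 had 18.5 CPM in homozygous, 168 CPM in heterozygous and 19.3 CPM in wild-type cells. In heterozygous over wild-type cells all 8 passed 2-fold higher, with log2 ratios of 1.46 for Stfa1 to 3.13 for Csta3, where 5.74% of 17412 genes did. The share of Ltf, Ngp and Camp cells moved with this, at 36.0% of heterozygous against 10.05% of wild-type cells, and within those cells the same ratios spanned 0.02 to 1.14. Homozygous over wild-type ratios over all kept cells ran from -0.18 to 0.25, with 0 of 8 past 2-fold where 8.43% of 17034 genes were. Homozygous over heterozygous ratios ran from -3.19 to -1.22, and all 8 passed 2-fold lower where 6.48% of 17026 genes did. In the kept cells outside the Ltf, Ngp and Camp cells the heterozygous library was again highest: in heterozygous over wild type all 8 passed 2-fold higher where 6.15% of genes did, and in homozygous over heterozygous 7 of 8 passed lower where 6.29% did. In homozygous over wild type 0 of 8 passed where 8.76% of genes did, but all 8 were above 0 there (median log2 0.30), while 3 were above and 5 below 0 over all kept cells. The kept cells outside the Ltf, Ngp and Camp cells still included neutrophils, in unequal numbers between libraries. Of the mature neutrophil-like cells described below (76 homozygous, 885 heterozygous and 39 wild-type), 14.4% were Ltf, Ngp and Camp cells. Of the immature neutrophil-like cells 32.6% were. Of all stefin UMIs, Ltf, Ngp and Camp cells held 33.5% in the homozygous, 70.6% in the heterozygous and 47.8% in the wild-type library. Fewer cells of a type and less RNA per cell cannot be told apart in such sums over all cells.

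Joint clustering of the 3 libraries, made without the stefin genes, gave 16 clusters. Summed stefin RNA was highest in the neutrophil clusters. Cluster 1, which was left unnamed because markers of immature and mature neutrophils shared it and which is led by Ltf and Mmp8, had 30159 CPM in homozygous, 32646 CPM in heterozygous and 25660 CPM in wild-type cells. Mature neutrophil-like cells, led by Acod1, Retnlg and Il1b, were 76 homozygous, 885 heterozygous and 39 wild-type cells. They had 24520 CPM in homozygous, 26682 CPM in heterozygous and 20951 CPM in wild-type cells, where Ltf, Ngp and Camp RNA together were at 5304, 7516 and 4019 CPM. Stefin UMIs per UMI of those 3 genes were therefore 4.62 in homozygous, 3.55 in heterozygous and 5.21 in wild-type mature neutrophil-like cells, against 1.15, 1.09 and 1.08 in cluster 1.

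Immature neutrophil-like cells (cluster 0) had 13290 CPM in homozygous, 20649 CPM in heterozygous and 17902 CPM in wild-type cells. The homozygous over wild-type log2 ratio there was -0.43 (-0.44 to -0.42), while it was 0.23 (0.22 to 0.25) in cluster 1 and 0.19 in the Ltf, Ngp and Camp cells. The direction between these libraries thus differed with the cells chosen, and RNA of Ltf, Ngp and Camp in cluster 0 was also lower in homozygous cells, at 15241 CPM against 18767 CPM in wild type. A dividing cluster led by histone genes (cluster 5, unnamed) already held 13201 CPM in homozygous, 17799 CPM in heterozygous and 12810 CPM in wild-type cells.

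Granulocyte-monocyte progenitor-like cells, led by Mpo and Ctsg, held 1289 CPM in homozygous, 3155 CPM in heterozygous and 2079 CPM in wild-type cells. Stfa1 made up most of it, at 883 CPM in homozygous, 1738 CPM in heterozygous and 1163 CPM in wild-type progenitor-like cells. The background from free RNA was read in T and natural killer-like cells, which should lack these genes. They held 106 CPM of Stfa1 in homozygous (74.0 to 148) and 97.9 CPM in wild-type cells (59.0 to 153), and the heterozygous library had too few of them, 18. Shares of cells with a Stfa1 UMI there were 60.7% in homozygous and 44% in wild-type cells, at median depths of 8930 and 5950 UMIs against 8512 and 8709 in Ltf, Ngp and Camp cells, so a share of cells with a UMI is a poor sign of expression for this gene. Stfa2l1, Stfa3, Csta2 and Csta3 had 0 or 1 UMI in those cells in either library.

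Monocyte-like cells led by Ifit3 (cluster 10) had 114 CPM of Stfa1 in homozygous, 292 CPM in heterozygous and 176 CPM in wild-type cells. Conventional dendritic-like cells had 66.0 CPM in homozygous, 1009 CPM in heterozygous and 787 CPM in wild-type cells. In the homozygous library the intervals of both overlapped that of T and natural killer-like cells. In the wild-type library both, at 176 and 787 CPM, lay above the upper bound for T and natural killer-like cells. Stem and progenitor-like cells had 199 CPM in homozygous, 348 CPM in heterozygous and 242 CPM in wild-type cells, above that background in the homozygous and wild-type libraries. In the heterozygous library, where neutrophils were most frequent, clusters of every kind held more stefin RNA, and free RNA and expression cannot be told apart there.

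**Figure D2:**
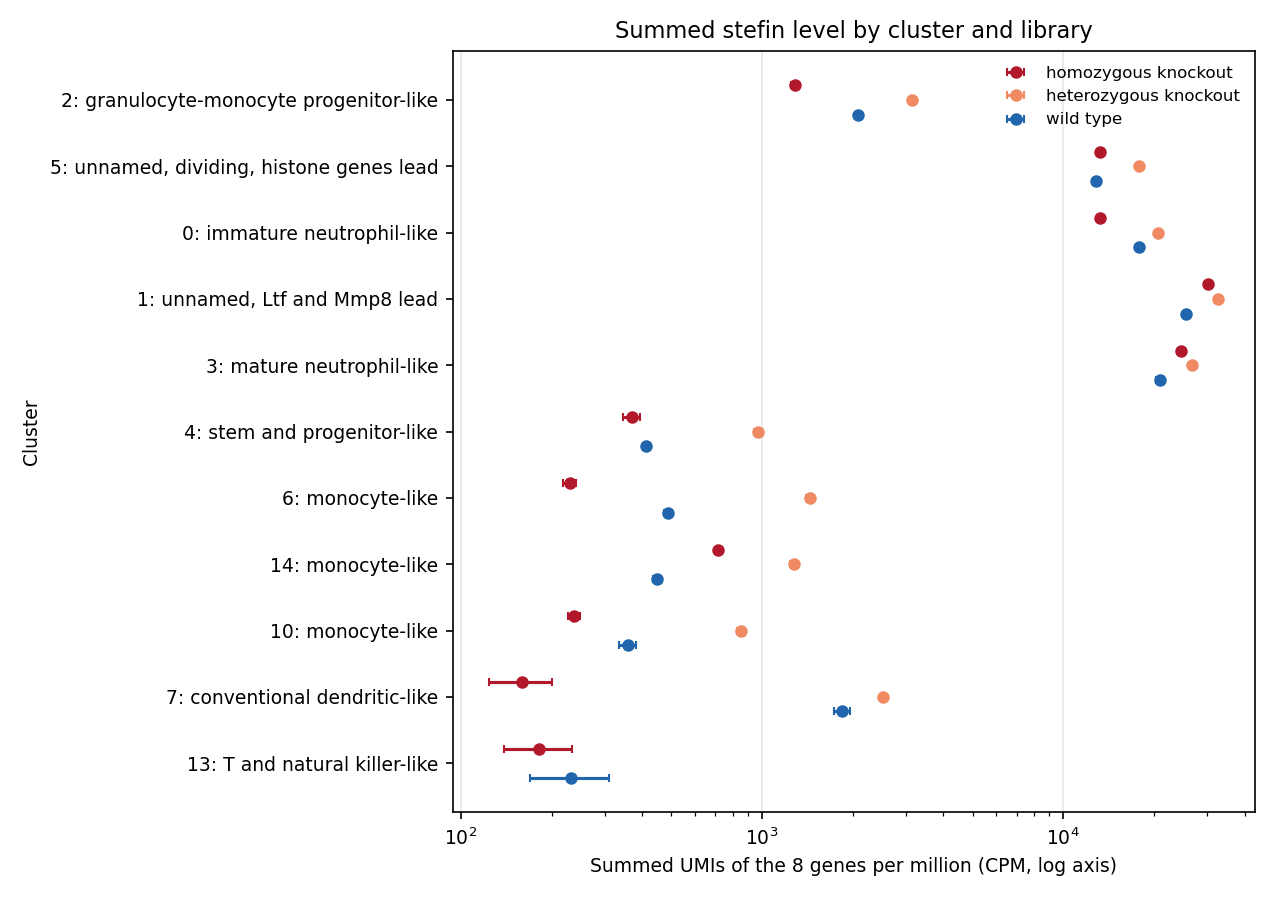
Summed UMIs of the 8 genes per 1000000 (log axis) in 11 clusters, with the homozygous, heterozygous and wild-type libraries one above the other and bars for 95% exact Poisson intervals. Clusters 5, 0, 1 and 3 lie above 10000 CPM in every library, granulocyte-monocyte progenitor-like cells between 1289 and 3155 CPM, and the other clusters shown at or below 2526 CPM.

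Within Ltf, Ngp and Camp cells the stefins were not evenly spread from cell to cell. Among cells with at least 3000 UMIs, Stfa1 was over 16000 CPM in 35.4% of 257 homozygous, 26.4% of 2770 heterozygous and 28.0% of 550 wild-type cells. At the other end it was under 2000 CPM in 43.2% of homozygous (37.0% to 49.5%), 43.9% of heterozygous (42.0% to 45.8%) and 39.3% of wild-type cells (35.2% to 43.5%). Between these, 1000 to 4000 CPM was found in 9.34% of homozygous, 14.04% of heterozygous and 10.9% of wild-type cells, while under 1000 CPM there were 38.1% of homozygous, 37.4% of heterozygous and 34.5% of wild-type cells. No Stfa1 UMI was seen in 39 homozygous, 68 heterozygous and 47 wild-type cells. Cstdc5 and Cstdc4 also had a low and a high group, while Actb, the beta-actin gene, which did not choose the cells, had a single peak. The cut was set after the values were seen, and cells on either side are ranges of 1 measure, not types.

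**Figure D3:**
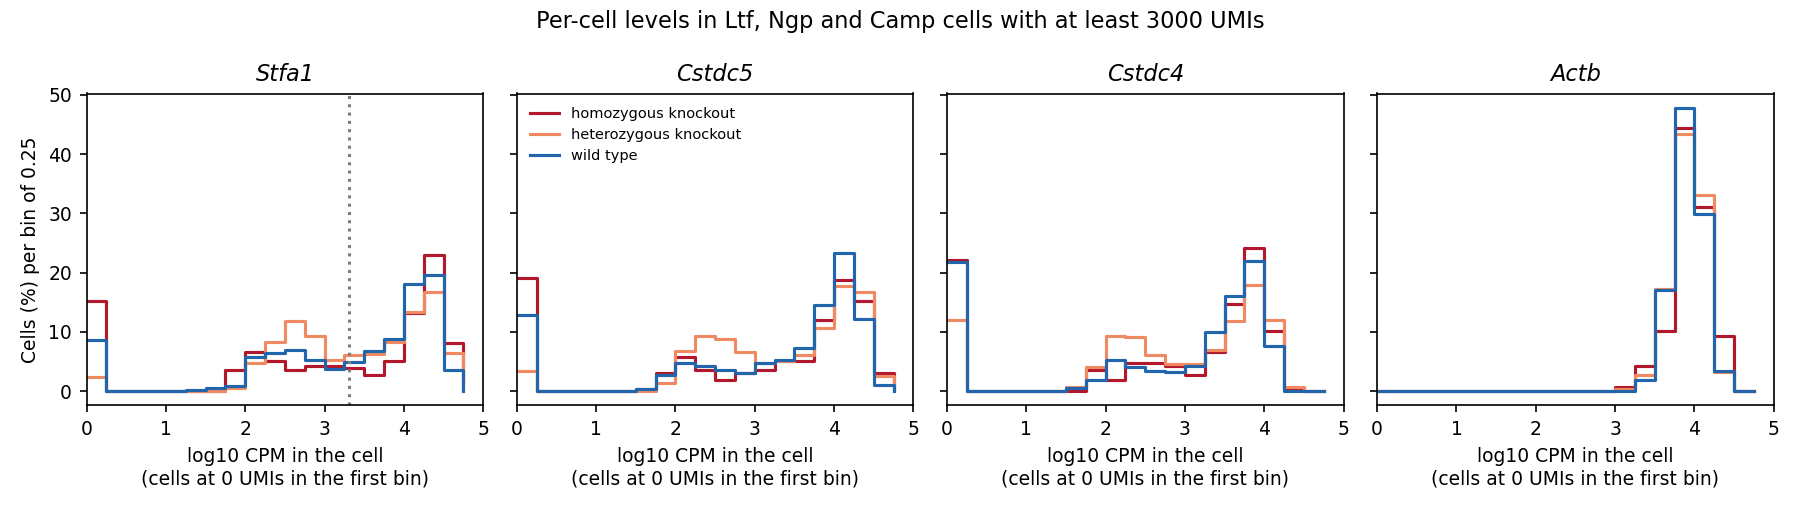
Share of cells (%) by log10 CPM in the cell, in bins of 0.25, for Stfa1, Cstdc5, Cstdc4 and Actb in Ltf, Ngp and Camp cells with at least 3000 UMIs of the homozygous, heterozygous and wild-type libraries. Cells with no UMI are in the first bin, and the dotted line marks 2000 CPM. Stfa1 has a low and a high group in each library, with 9.34%, 14.04% and 10.9% of cells between 1000 and 4000 CPM, and Actb has 1 peak.

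The other members followed Stfa1. In cells at or above 2000 CPM of Stfa1, Stfa1 itself averaged 17077 CPM in homozygous, 15955 CPM in heterozygous and 14235 CPM in wild-type cells, and under the cut 321, 546 and 420 CPM. Cstdc4 had 5729 CPM in high and 470 CPM in low homozygous cells, 6100 and 416 CPM in heterozygous, and 5352 and 337 CPM in wild-type cells. Cstdc5 had 11953 CPM in high and 859 CPM in low homozygous cells, 13560 and 1183 CPM in heterozygous, and 10537 and 1380 CPM in wild-type cells. The difference in Stfa1 is set by the cut itself. Cstdc4 and Cstdc5 were at least 7.6-fold higher in cells with high Stfa1 in each library, and Stfa1 and Cstdc5 share near-identical transcript stretches, described below. Stfa2l1 was 11.2-fold higher in high than in low homozygous cells, 14.2-fold in heterozygous and 10.8-fold in wild-type cells. Stfa2 was 7.2-fold higher in homozygous, 9.7-fold in heterozygous and 4.2-fold in wild-type cells, and Stfa3 3.3-fold, 5.8-fold and 2.4-fold. Csta2 was 13.01-fold higher in high than in low homozygous, 11.8-fold in heterozygous and 3.7-fold in wild-type cells. Csta3 was 7.1-fold higher in homozygous, 17.1-fold in heterozygous and 8.6-fold in wild-type cells.

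Other neutrophil RNA was higher in the cells with low Stfa1. S100a8, a calprotectin subunit gene that did not choose the cells, had 47806 CPM in high and 79436 CPM in low homozygous cells, 46565 and 58615 CPM in heterozygous, and 43492 and 60909 CPM in wild-type cells. Lcn2, the lipocalin of secondary granules, had 6013 CPM in high and 9999 CPM in low homozygous cells, 6882 and 7833 CPM in heterozygous, and 6063 and 9410 CPM in wild-type cells. The choice of cells sets a minimum for Ltf, Ngp and Camp, so low levels of these could not occur. Ltf had 1151 CPM in high and 2136 CPM in low homozygous cells, 1369 and 2029 CPM in heterozygous, and 1024 and 1881 CPM in wild-type cells. Actb had 8784 CPM in high and 10595 CPM in low homozygous cells, 8170 and 9103 CPM in heterozygous, and 7996 and 9296 CPM in wild-type cells. Median depth was 9225 UMIs in high and 7850 in low homozygous cells, 9299 and 8175 in heterozygous, and 9314 and 7894 in wild-type cells. Cells under 2000 CPM of Stfa1 were present in each neutrophil cluster. Their shares here are of all cluster cells with at least 3000 UMIs, and not of Ltf, Ngp and Camp cells alone. They were 56.2% of homozygous, 48.8% of heterozygous and 44.0% of wild-type immature neutrophil-like cells, and 51.9%, 44.3% and 47.9% of cluster 1. Among mature neutrophil-like cells they were 50% of 72, 44.7% of 814 and 39.5% of 38, the last with an interval of 24.0% to 56.6%. In the dividing cluster 5 they were 42.1% of homozygous, 46.3% of heterozygous and 42.2% of wild-type cells.

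Neighbouring genes were then set beside this split, a measure that the choice of members did not use. Cstdc6, the stefin gene inside the span, had 58.2 CPM in high and 11.7 CPM in low homozygous cells, 72.1 and 6.19 CPM in heterozygous, and 40.7 and 6.33 CPM in wild-type cells. Cstdc6 shares transcript stretches with Cstdc5, described below, which stood at 11953, 13560 and 10537 CPM in the high cells of these libraries. The part of Cstdc5 reads in the Cstdc6 counts was not tested. Fam162a, a mitochondrial protein gene among the 5 nearest coding genes on the left, had 142 CPM in high and 75.4 CPM in low homozygous cells, 99.5 and 60.2 CPM in heterozygous, and 181 and 89.6 CPM in wild-type cells. Its log2 high over low ratio was 0.92 (0.53 to 1.32), 0.72 (0.60 to 0.85) and 1.02 (0.78 to 1.26) in the homozygous, heterozygous and wild-type libraries. Among all genes outside the 8 with at least 50 UMIs in each library, these neighbours were the first and the fourth by the interval bound nearest to 0 in the direction of higher in high Stfa1 cells. Between them ranked Cacnb2, a calcium channel subunit gene, and Penk, the proenkephalin gene. Kpna1, farther left, had log2 ratios of 0.64 (0.23 to 1.06), 0.26 (0.16 to 0.36) and 0.10 (-0.12 to 0.32), and was the 1 other neighbour with intervals above 0 in more than 1 library. Ccdc58, which lies between Fam162a and the stefin genes, had ratios of 0.40, 0.24 and 0.04, and its intervals and those of Cd86 and Eaf2 held 0 in all 3 libraries. Wdr5b had 1.41 in homozygous, 0.77 in heterozygous and -0.55 in wild-type cells, with an interval above 0 in the heterozygous library only. Slc15a2, measured mainly in heterozygous cells, had 0.05 there (-0.12 to 0.22). A higher level in cells with high Stfa1 was thus not shared by all neighbours.

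**Figure D4:**
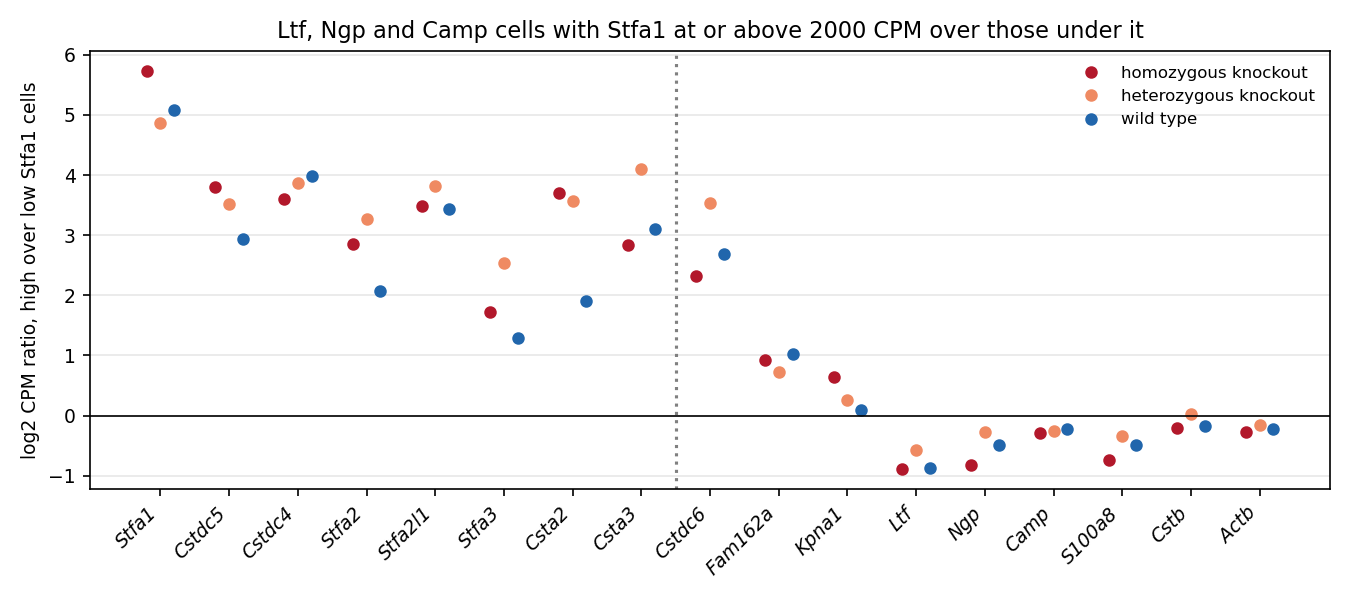
Log2 CPM ratio of Ltf, Ngp and Camp cells with Stfa1 at or above 2000 CPM over those under it, for the 8 members (left of the dotted line), the neighbours Cstdc6, Fam162a and Kpna1, and 6 other genes, with points for the homozygous, heterozygous and wild-type libraries. The members other than Stfa1, which sets the split, and Cstdc6 lie above 1 in each library, Fam162a lies at 0.92, 0.72 and 1.02, and S100a8 and Actb lie below 0, as do Ltf, Ngp and Camp, which chose the cells.

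Sex-linked RNA, which can differ between pooled animals, also moved with the split. In the homozygous library low Stfa1 cells were 78.6% of 14 Ltf, Ngp and Camp cells with Y-linked RNA only (49.2% to 95.3%) and 37.3% of 193 with Xist only (30.5% to 44.5%). In the heterozygous library they were 40.1% of 1875 cells with Y-linked RNA only (37.9% to 42.4%) and 69.4% of 209 with Xist only (62.6% to 75.6%). In the wild-type library they were 91.7% of 12 cells with Y-linked RNA only (61.5% to 99.8%) and 35.4% of 463 with Xist only (31.1% to 40.0%). In each library low cells were a larger share of the less frequent sex-linked class than of the more frequent one. They were still 35.4% to 40.1% of the cells of the more frequent class, which held more low cells by number. Cells with both kinds of RNA or neither were left out of these shares, and the part of the animal of origin in the split was not tested.

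Maturation separated the members. Ltf, Ngp and Camp cells were divided at the pooled quartiles of the summed share of Mmp8, Mmp9, Retnlg, Cxcr2 and Il1b, which are late neutrophil genes. Stfa1 had 11542 CPM in the first and 8276 CPM in the last quartile of homozygous cells, 9640 and 8398 CPM in heterozygous and 10060 and 6091 CPM in wild-type cells. Cstdc5 and Cstdc4 likewise had ratios of last over first quartile of 0.61 to 1.08 in the 3 libraries. Stfa3 had 237 CPM in the first and 2292 CPM in the last quartile of homozygous cells, 181 and 2005 CPM in heterozygous and 363 and 1919 CPM in wild-type cells. Stfa2 was 4.05-fold higher in the last than in the first quartile of homozygous cells, 5.001-fold in heterozygous and 4.01-fold in wild-type cells. Csta2 was 6.12-fold, 5.65-fold and 3.78-fold higher, and Csta3 3.52-fold, 6.77-fold and 7.56-fold, in the homozygous, heterozygous and wild-type libraries. Stfa2l1 lay between, at 1.77-fold, 1.69-fold and 1.45-fold.

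The trio of Stfa1, Cstdc4 and Cstdc5 was therefore high from the earliest quartile, and Stfa2, Stfa3, Csta2 and Csta3 had higher CPM in later ones. The last quartile was not always the highest: heterozygous Stfa3 had 2387 CPM in the third and 2005 CPM in the last. The clusters showed the same order. In the dividing cluster 5, Cstdc5 stood at 3736 CPM in homozygous, 5832 CPM in heterozygous and 3565 CPM in wild-type cells, and Stfa3 at 67.9, 121 and 103 CPM. In mature neutrophil-like cells Cstdc5 stood at 4212 CPM in homozygous, 5845 CPM in heterozygous and 2873 CPM in wild-type cells, and Stfa3 at 1210, 1242 and 982 CPM. The first quartile ended at a late share of 0.0116%. Median depth was 13643 UMIs in the first and 7185 in the last quartile of heterozygous cells. The share of heterozygous cells with a UMI changed less than CPM, from 76.4% to 76.0% for Stfa2 and from 55.2% to 60.7% for Stfa3. The libraries differed in make-up along the late share, since the last quartile held 22.1% of homozygous, 28.3% of heterozygous and 9.41% of wild-type Ltf, Ngp and Camp cells. Giving each quartile equal weight, the summed log2 ratio was 0.24 for homozygous over wild type and 0.17 for heterozygous over wild type. The share of cells with low Stfa1 was 29.2% in the first and 59.6% in the last quartile of homozygous cells, 39.9% and 49.9% in heterozygous and 27.4% and 55.8% in wild-type cells.

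**Figure D5:**
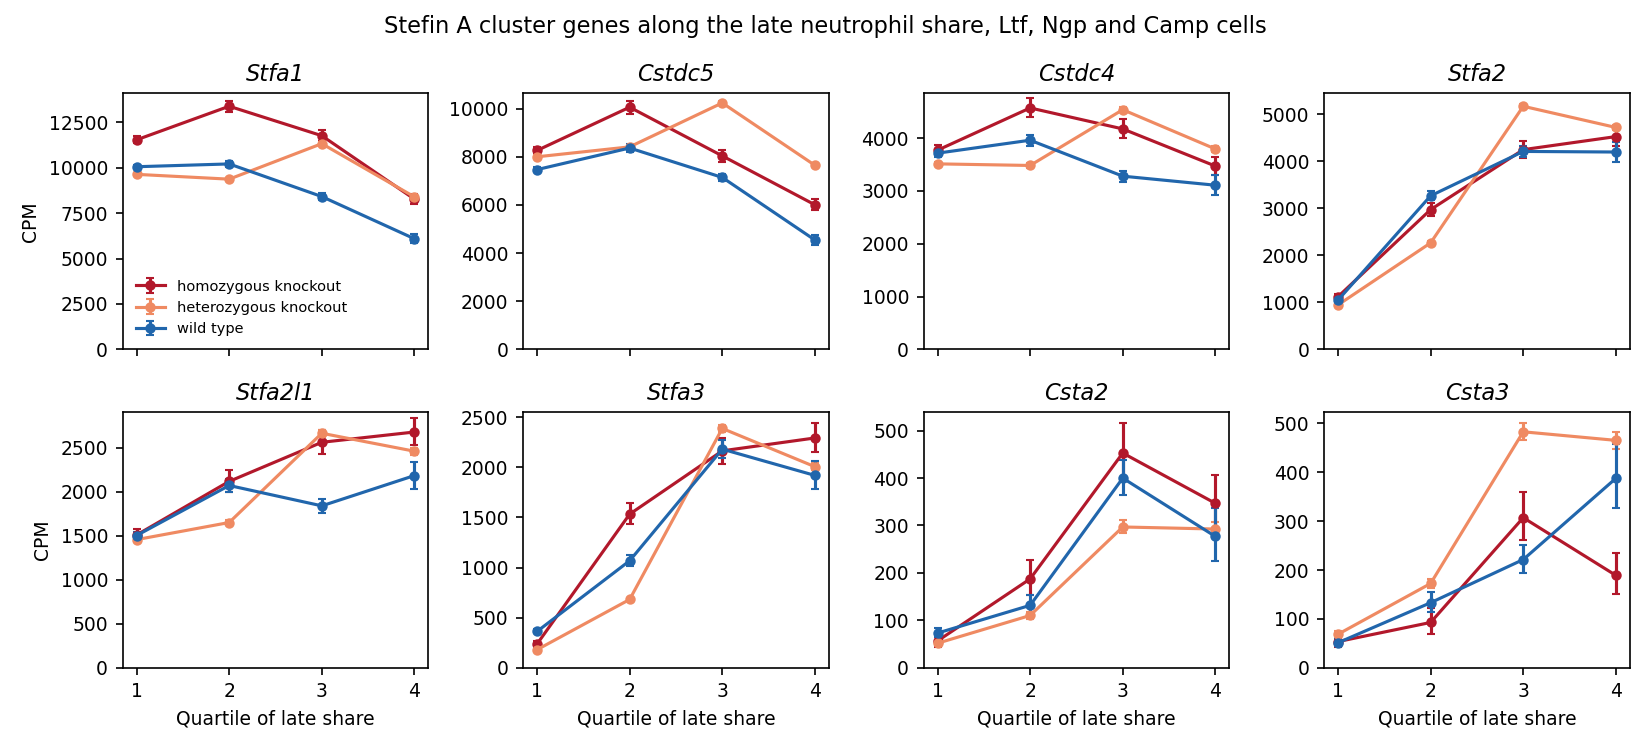
UMIs per 1000000 of each of the 8 genes by quartile of the late neutrophil share, from lowest to highest, in Ltf, Ngp and Camp cells of the homozygous, heterozygous and wild-type libraries, with bars for 95% exact Poisson intervals and each vertical axis starting at 0. Stfa1, Cstdc5 and Cstdc4 are high from the first quartile, with last over first ratios of 0.61 to 1.08, and Stfa2, Stfa3, Csta2 and Csta3 are lowest in the first quartile in each library.

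Across single Ltf, Ngp and Camp cells of 1 library, the 28 pairs of members had a median Pearson correlation of 0.55 in homozygous, 0.66 in heterozygous and 0.51 in wild-type cells on log1p UMIs per 10000. The strongest pair was Stfa1 with Cstdc4 in homozygous (0.89) and wild-type cells (0.88) and Stfa1 with Cstdc5 in heterozygous cells (0.86). The weakest was Csta2 with Cstdc5 in each library, at 0.44, 0.49 and 0.36. With cells thinned to 1000 UMIs the medians were 0.42 in homozygous, 0.46 in heterozygous and 0.32 in wild-type cells. Correlations of the summed stefins with genes outside the family that did not choose the cells were weaker, at 0.01 in homozygous, -0.06 in heterozygous and -0.08 in wild-type cells with Actb and at 0.00, 0.03 and -0.02 with Cstb, a sparse gene. The cells of a library share its preparation and depth, so these are descriptions.

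Counting can mix or drop reads of near-identical copies. Over the last 400 bases of the longest GENCODE M21 transcript (all 294 bases for Csta3), 28.3% of the 90-base stretches of Cstdc5 also occur in Cstdc6 or Stfa1, 12.5% of those of Stfa1 occur in Cstdc5, and 16.1% of those of Csta2 occur in Cstdc4. Stfa2 and Stfa2l1 share 2.57%, and Stfa3, Csta3 and Cstdc4 share 0 there. The split of UMIs between these copies is uncertain to that extent, and how far sums over the 8 are affected was not tested.

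The proteases that stefins inhibit were low in the same cells. Cathepsin H (Ctsh) had 149 CPM in homozygous, 165 CPM in heterozygous and 189 CPM in wild-type Ltf, Ngp and Camp cells, and cathepsin B (Ctsb) 116, 130 and 142 CPM. Cathepsin L (Ctsl) had 100.4 CPM in homozygous, 130.5 CPM in heterozygous and 117 CPM in wild-type cells, and Ctsz 74.9, 74.2 and 85.9 CPM. Over all genes 6.36% were past 2-fold in homozygous over wild type, 8.06% in heterozygous over wild type and 11.8% in homozygous over heterozygous cells, against which the counts of the gene lists are to be read. Of the 8 cysteine cathepsins and legumain measured with 20 UMIs, 0 were past 2-fold higher and 1, the legumain gene Lgmn at 1.1 CPM in homozygous and 4.1 CPM in wild-type cells, past 2-fold lower in homozygous over wild type. Their median log2 ratio was -0.48, with all 8 below 0, beside 0.18 for the members and -0.03 over all genes. In heterozygous over wild type the median was -0.20, and Lgmn was again the 1 past 2-fold. Of 4 other cathepsins, Ctsa was past 2-fold lower in homozygous over wild type, at 13.5 CPM in homozygous and 28.8 CPM in wild-type cells. Cathepsin G (Ctsg), a serine protease of primary granules, had 108 CPM in homozygous, 76.0 CPM in heterozygous and 54.7 CPM in wild-type cells.

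Other inhibitors did not share the stefin levels. Cstb had 58.6 CPM in homozygous, 58.3 CPM in heterozygous and 65.7 CPM in wild-type cells, the secreted cystatin C gene Cst3 had 313, 308 and 329 CPM, and Serpinb1a, a neutrophil elastase inhibitor, 436, 461 and 466 CPM. Of the other cystatins and inhibitors with 20 UMIs, 0 of 5 in homozygous and 0 of 6 in heterozygous over wild type were past 2-fold. Csta1, the left neighbour, had 0 UMIs in homozygous, 5 in heterozygous and 0 in wild-type Ltf, Ngp and Camp cells. Among 13 secondary granule genes the median log2 ratio was 0.17 in homozygous and 0.19 in heterozygous over wild type, beside the members' 0.18 and 0.19. The 13 include Ltf, Ngp and Camp, which chose the cells, and these medians are the values of Ltf and Ngp. In each comparison 11 of the 13 were above 0 and 2 below. Lcn2, which did not choose the cells, was at 0.03 and 0.01. Mmp8, the neutrophil collagenase, was the 1 past 2-fold in both. Primary granule genes had medians of -0.07 over 8 and -0.22 over 9, with Nkg7 past 2-fold lower in homozygous over wild type. Late neutrophil genes had medians of 0.47 and 0.78 over 13, with 3 higher and 1 lower past 2-fold in homozygous and 4 higher in heterozygous over wild type. In homozygous over heterozygous cells Nkg7, among primary granule genes, and Il1b, Ccl6 and Slpi, among late genes, were past 2-fold lower, and 0 genes of the other 4 lists passed 2-fold.

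Over 38 sums of at least 50 cells, each of 1 cluster in 1 library, the 10 genes most like the summed stefins among 14517 were S100a8 (Pearson r 0.985), S100a9 (0.984), Ngp (0.968), Wfdc21 (0.956), Megf9 (0.944), Itgb2l (0.942), Vamp5 (0.940), Olfm4 (0.939), 4930438A08Rik (0.939) and Gm47071 (0.936). S100a8 and S100a9 encode calprotectin, the main cytosolic protein of neutrophils. Cstb had a correlation of -0.50 on the same sums. The sums share libraries and clusters, so these values carry no p.

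Of the coding neighbours with 20 UMIs, only Slc15a2 was past 2-fold between libraries, in heterozygous over wild type and homozygous over heterozygous cells. Slc15a2, a peptide transporter gene on the right, had 0 UMIs in homozygous (exact Poisson upper bound 1.31 CPM), 1216 in heterozygous and 9 in wild-type Ltf, Ngp and Camp cells. Its log2 ratio was 4.78 (3.85 to 5.91) for heterozygous over wild type. Cstdc6 had 42.2 CPM in homozygous, 45.2 CPM in heterozygous and 29.1 CPM in wild-type cells. Fam162a had a log2 ratio of -0.35 (-0.53 to -0.17) in homozygous and -0.86 (-0.97 to -0.75) in heterozygous over wild type, opposite in sign to the members. In homozygous over wild type the intervals of Kpna1 (-0.40, -0.61 to -0.20) and Wdr5b (0.95, 0.11 to 1.78) did not hold 0, and those of Ccdc58, Cd86 and Eaf2 did. In heterozygous over wild type the intervals of Ccdc58 (-0.31, -0.57 to -0.04) and Cd86 (0.41, 0.10 to 0.73) did not hold 0, and those of Kpna1, Wdr5b and Eaf2 did. Casr and Ildr1 had fewer than 20 UMIs in the pairs compared.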

How the data were processed

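Droplet single-cell RNA-seq was made with Chromium 3' v3 kits, per the labels' protocols, from 3 libraries of mouse marrow, 1 per Fabp4 genotype. The deposited matrices hold raw counts of UMIs per gene and barcode. Cell Ranger 8.0.1 made them, per the file headers. The build was mm10 and the aligner STAR, per the submitters' processing notes. The annotation release and read length are not given in the sources used here. Of the 33696 gene identifiers, 1735 are absent from GENCODE M21, so coordinates are those of M21 on GRCm38 and not necessarily those behind the counts. Groups follow the genotype label. The short sample titles do not spell out the genotypes, so which library is homozygous and which heterozygous rests on that label.

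Cells needed 500 UMIs, 200 genes and a mitochondrial share under 10%. Scrublet in scanpy called 0 homozygous, 2 heterozygous and 2 wild-type cells at its own threshold, too few to have worked, so doublets were kept and the top-scoring 280, 682 and 423 cells were left out as an alternative. Clusters used 2000 variable genes (without stefins, Xist, Y-linked and receptor genes and Fabp4), 30 components, 15 neighbours and Leiden resolution 1. A cluster was named from fixed marker lists when at least 3 markers were raised at 10 CPM or more and the list's score reached 0.5. These limits were set after the data were seen, and cluster 12 was left unnamed by hand. UMIs were summed per library, with 95% exact Poisson, Clopper-Pearson and exact conditional intervals for counting error only. The ratio code was tested on simulated counts. No p-value was computed, since each genotype has 1 library.

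The 8 members and the gene lists (other cystatins, cysteine cathepsins, other cathepsins, secondary and primary granule, late neutrophil) were chosen with earlier results of these data known. Named genes are the members, the 4 most abundant genes of each list, list genes past 2-fold, the 10 genes most like the members and up to 5 coding neighbours on each side. Genes named beside the Stfa1 split were chosen after their values were seen. The alternatives were 10 planned settings for each ratio, other Leiden resolutions, thinning to 1000 UMIs, and later additions. The code ran on scanpy 1.11.5 with python-igraph 0.11.9 for clusters, scipy 1.17.1 for intervals and biopython 1.88 for alignments, under Python 3.11.15, and figures were drawn with matplotlib 3.10.9. Protein sequences were not used here.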

Additional observations from a re-analysis of the deposited data

Results flagged for a closer look

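Barcodes outside the cell filters, which no comparison above uses, also held stefin RNA. The 8 genes together stood at 1345 CPM in 3797 such homozygous barcodes (1320 to 1371) and 2862 CPM in 2761 heterozygous barcodes (2818 to 2907), both above the 1174 CPM in 3828 wild-type barcodes (1153 to 1195). Levels in kept cells were 5411 CPM in the homozygous, 16605 CPM in the heterozygous and 4913 CPM in the wild-type library, in the same order. Exact Poisson intervals cover counting error only.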

How the results depend on the processing

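The summed stefin log2 ratio in Ltf, Ngp and Camp cells kept its sign under all 11 alternatives tried for each of the 3 comparisons (1 of them, the limit to cells with at least 3000 UMIs, was chosen after seeing the data), and 17 of these 33 values left the main counting interval. For homozygous over wild type (0.19) these were 0.15 at a share cut of 3%, 0.22 with median rescaling and 0.24 with equal weight per quartile. For heterozygous over wild type (0.14) they were 0.16 with at least 1000 UMIs and under 5% mitochondrial share, 0.0878 without top-scoring doublets, 0.0402 at a share cut of 3%, 0.10 with cells weighted equally, 0.0931 after thinning, 0.22 with median rescaling and 0.17 with equal weight per quartile. For homozygous over heterozygous (0.06) they were 0.0445 with the stricter cell filter, 0.10 without doublets, 0.11 at a share cut of 3%, 0.0884 with cells weighted equally, 0.0938 after thinning, 0.0324 with median rescaling and 0.0732 with equal weight per quartile. The cause was not tested. Of 240 member values, 153 stayed within the main interval, 79 moved, and 8 with a main interval clear of 0 changed sign, while 20 changed sign in all. Stfa1 in heterozygous over wild type was -0.0232 without doublets, -0.0681 at a share cut of 3%, -0.0193 with cells weighted equally and -0.0143 after thinning. Stfa3 was -0.0734 with equal weight per quartile and Cstdc4 -0.0752 at a share cut of 3% in that comparison. Cstdc5 in homozygous over heterozygous was 0.00686 with cells weighted equally and 0.0421 after thinning. With 1 library per genotype, leaving out a replicate was not possible. No paired analysis was possible because each genotype has 1 library, so the shared replicate number 1 pairs nothing. With the Stfa1 cut at 1000 or 4000 CPM, chosen after seeing the data, low cells were 38.1% or 47.5% of homozygous, 37.4% or 51.4% of heterozygous and 34.5% or 45.5% of wild-type cells. Of 31 class levels at other Leiden resolutions, 21 left their counting interval. Homozygous values rest on 271 cells, and the heterozygous share of Ltf, Ngp and Camp cells limits comparison over all cells.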
